A study of Mus musculus with 12 samples.

Results

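Circadian clock genes were examined in mouse left ventricles after doxorubicin (DOX), an anthracycline anticancer drug that damages the heart, or normal saline (NS). The 10 genes are the transcriptional activators Arntl (Bmal1) and Clock and 8 genes that this activator pair drives: Per1, Per2, Per3, Nr1d1, Nr1d2, Dbp, Tef and Ciart. They were selected on their measured values in these same libraries, so their levels and differences between groups are given as descriptions without a test. All 10 were found among 53465 genes by name, and all 10 were among the 16101 genes with enough counts to be fitted. RNA of 12 mice was sequenced, 1 library per mouse and 3 mice per group. A17fl/fl mice carry loxP-flanked Adam17, which encodes a membrane protease, and no Cre. A17α-MHCKO mice carry the same floxed alleles and a Cre recombinase under the α-MHC promoter. The Cre excises exon 2 of Adam17 in cardiomyocytes and spares it in the other cells of the heart. The mice were littermates of the 2 genotypes, and every group carries the floxed alleles. Doxorubicin was injected into the peritoneum at 5 mg/kg on days 0, 7, 14 and 21, a total of 20 mg/kg, and the NS groups received the same volume of saline. The study states male mice of 8 weeks for its experiment with these 4 groups and a final examination 4 weeks after the last injection, but does not tie the sequenced mice to an age. The hour at which hearts were collected and the lighting schedule are not given in the sources used here, so time of day and group cannot be told apart in anything that follows.

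The mammalian clock is a feedback loop of transcription and translation that runs in nearly every cell, cardiomyocytes included. BMAL1 and CLOCK bind E-box sequences and switch on the Per and Cry genes, whose proteins return to the nucleus and inhibit the pair. The same pair drives Nr1d1 and Nr1d2, encoding the repressors REV-ERBα and REV-ERBβ, which bind ROR elements and shut off Arntl. It also drives Dbp and Tef, whose products bind D-boxes, and Ciart (Chrono), a further repressor of the pair. In a cycling tissue the transcripts of the activators and of these targets therefore peak at roughly opposite times of day. The amplitude of Dbp, Arntl, Per3 and Nr1d1 is known to be large while that of Clock is small.

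The promoter stretches that carry these elements are shown because the rule that chose the members did not use sequence. The elements differed among the members: 6 of the 9 with a window held at least 1 of the 4 searched, and 3 held an E-box. RefSeq promoter windows of GRCm38.p6, running from 250 bases before to 50 bases after each annotated start, were found for 9 of the 10 members, 14 windows in all. They come from another build than the GRCm39 that the submitters' processing notes name, so no coordinate of the count table is given. Both strands were searched for the E-box CACGTG, the E′-box CACGTT, the D-box TTATGTAA and the ROR element TAGGTCA. Of all 32851 promoter windows, 7.15% held the E-box, 4.68% the E′-box, 0.938% the D-box and 2.61% the ROR element. Each line reads 5′ to 3′ in the direction of the gene, capitals mark the motif, and positions count from the start. Ciart held 3 E-boxes, at -116, -58 and -44, in chr3:95882242-95882369 on the minus strand. Per1 held 1 E-box, at -166, in chr11:69098758-69098813 on the plus strand. Tef held 1 in each of its windows, at -127 in chr15:81802521-81802576 and at -138 in chr15:81811251-81811306, both on the plus strand. Nr1d1 held 1 E′-box, which reads AACGTG along the gene, at -28 in chr11:98775378-98775430 on the minus strand. Per3 held 2 D-boxes, at -205 and -158, in chr4:151044791-151044895 on the minus strand. Arntl held 1 ROR element, at position 31 after the start of one of its windows, in chr7:113207530-113207558 on the plus strand. No matches overlapped each other, and the windows of Clock, Nr1d2 and Dbp held none of these letters. A match is a description of letters and not a measured binding site.
Ciart: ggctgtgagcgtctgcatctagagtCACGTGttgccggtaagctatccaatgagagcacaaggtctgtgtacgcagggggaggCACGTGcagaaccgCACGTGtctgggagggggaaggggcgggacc
Per1: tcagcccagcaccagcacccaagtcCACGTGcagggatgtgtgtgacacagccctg
Tef, window 1: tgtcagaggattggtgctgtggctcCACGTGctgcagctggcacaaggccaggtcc
Tef, window 2: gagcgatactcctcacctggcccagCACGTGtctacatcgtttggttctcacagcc
Nr1d1: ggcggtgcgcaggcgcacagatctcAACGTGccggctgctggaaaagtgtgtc
Per3: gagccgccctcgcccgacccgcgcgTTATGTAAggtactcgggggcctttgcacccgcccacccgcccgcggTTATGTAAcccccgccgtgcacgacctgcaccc
Arntl: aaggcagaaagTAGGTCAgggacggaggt

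The libraries held between 15950717 and 21725076 counted fragments. Values are CPM (counts scaled to library size by TMM) unless FPKM, which also divides by gene length, is named. Adam17, the targeted gene, lay between 43.6 and 70.9 CPM in the 6 A17fl/fl libraries and between 27.9 and 36.8 in the 6 A17α-MHCKO libraries, without overlap. These counts of the whole gene do not tell intact transcripts from those that lack the excised exon. Cardiomyocyte markers were abundant in every library. Of the 12 libraries 1 stood apart. A17fl/fl + NS replicate 1 had a summed level of 6 neutrophil markers of 2318 CPM, against 5.39 to 66.5 in the other 11, and a summed level of 5 fibroblast markers of 3418 CPM against 985 to 1575. Its sum of 8 cardiomyocyte markers was the lowest, at 17380 CPM against 26650 to 43890. Atrial markers were uneven as well, with the sum of 6 of them between 342.5 CPM in A17fl/fl + NS replicate 3 and 8643 CPM. In A17fl/fl + NS replicate 1 that sum was 1033 CPM, with 3 of the 6 (Sln, Myl7 and Bmp10) at 0. Results that rest on this library are therefore also given without it.

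Per kilobase, the REV-ERB gene Nr1d1 was the most abundant member with a median of 34.9 FPKM over the 12 libraries, followed by Dbp at 18.0, Nr1d2 at 15.3 and Tef at 12.5. Per1 had a median of 8.04 FPKM, Per2 of 5.20 and Per3 of 2.17. The activators were scarcer, with medians of 1.56 FPKM for Clock and 0.774 for Arntl, and Ciart had 1.39. The ranges overlapped, for example from 4.98 to 48.9 FPKM for Nr1d1 and from 1.21 to 32.2 for Dbp, so this order is one of medians, and the ranges of every pair of neighbours in it overlap. The spread between mice was far larger for some members than for others. Dbp spanned 29.2-fold from the lowest to the highest library, Arntl 11.9-fold, Per3 11.2-fold and Nr1d1 10.4-fold. Ciart spanned 6.99-fold, Nr1d2 5.77-fold, Tef 4.85-fold, Clock 3.33-fold, Per2 3.22-fold and Per1 2.76-fold. The SD of log2 CPM was 1.68 for Dbp and 0.37 for Per1, and the median gene above 1 CPM had an SD of 0.297. By that SD Dbp stood at percentile 99.2 of 14460 such genes, Arntl at 97.4 and Per3 at 97.0, whereas Clock stood at 77.2 and Per1 at 64.7.

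Arntl, the obligate activator of the loop, was measured at 19.1, 4.37 and 7.77 CPM in A17fl/fl + NS and at 6.10, 7.63 and 2.11 CPM in A17fl/fl + DOX. It was measured at 23.5, 9.76 and 25.2 CPM in A17α-MHCKO + NS and at 3.90, 2.99 and 5.28 CPM in A17α-MHCKO + DOX. The 4 highest libraries were thus all from saline mice, and every A17α-MHCKO + DOX value lay below every A17α-MHCKO + NS value, while the A17fl/fl groups overlapped. The group means were 10.4 ± 7.71 (SD, n = 3), 5.28 ± 2.85, 19.5 ± 8.48 and 4.06 ± 1.15 CPM in the same order. Clock, the partner of BMAL1, was measured at 47.1, 30.7 and 32.6 CPM in A17fl/fl + NS and at 42.9, 31.5 and 33.2 CPM in A17fl/fl + DOX. It stood at 61.5, 35.0 and 71.3 CPM in A17α-MHCKO + NS and at 21.4, 32.4 and 36.6 CPM in A17α-MHCKO + DOX. Clock followed Arntl with a smaller span: the same 3 saline libraries, replicate 1 of A17fl/fl + NS and replicates 1 and 3 of A17α-MHCKO + NS, were the highest for both genes, and no pair of groups was free of overlap for Clock.

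**Figure D1:**
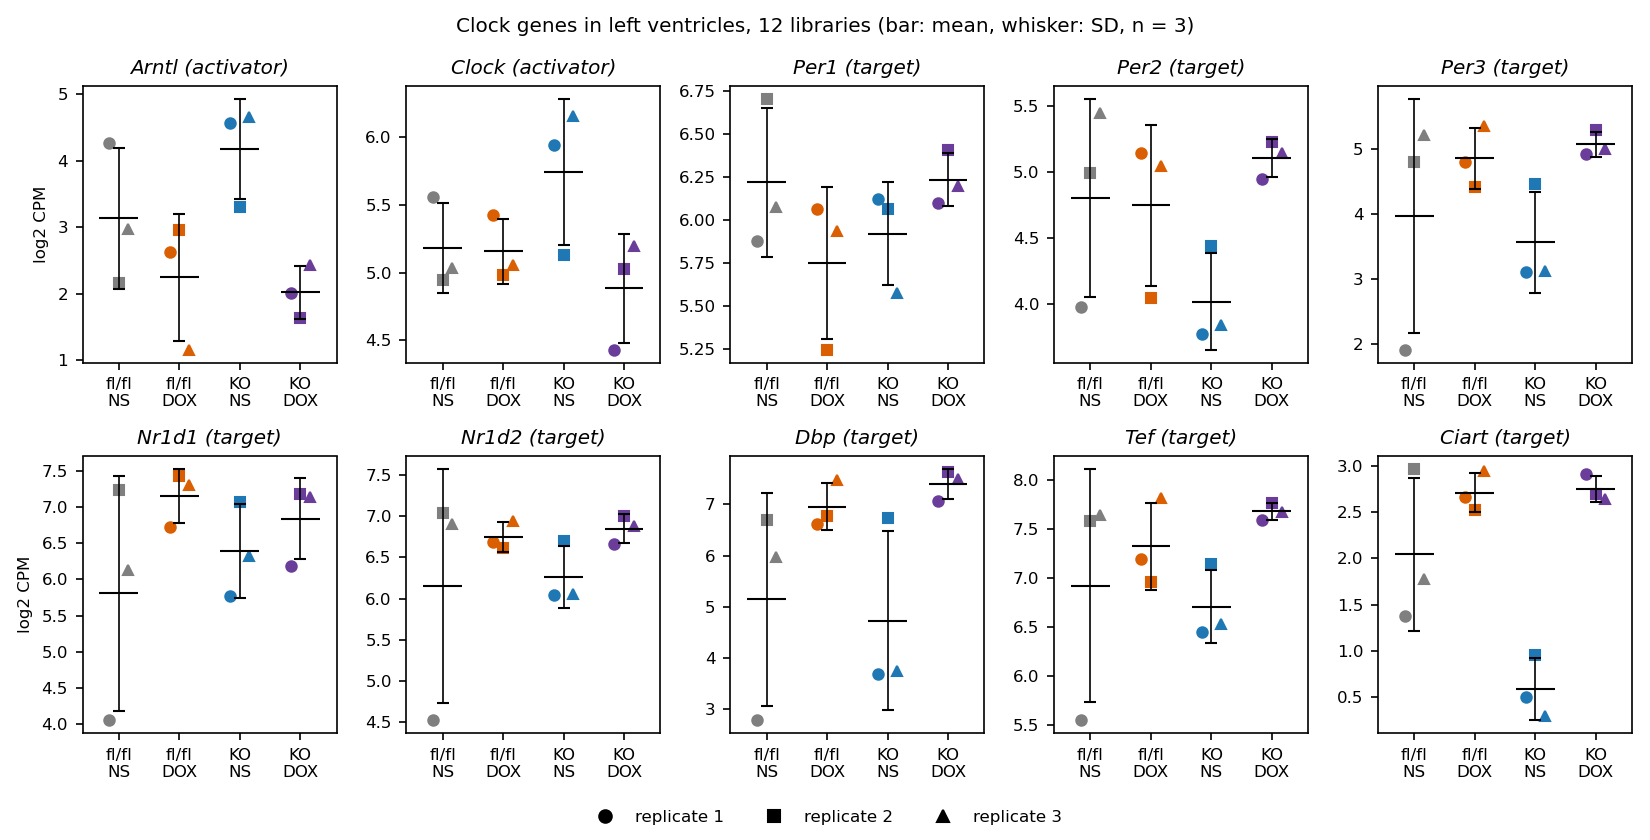
Level of each of the 10 clock genes (y axis, log2 CPM, a separate scale in each panel) in the 4 groups (x axis; fl/fl is A17fl/fl, KO is A17α-MHCKO), with 1 point per mouse, the marker giving the replicate number, a horizontal bar for the mean and a whisker for the SD (n = 3). Replicates 1 and 3 of A17α-MHCKO + NS and replicate 1 of A17fl/fl + NS are high for Arntl and Clock and low for Per2, Per3, Dbp and Tef, and the A17α-MHCKO + DOX points are tightly grouped for the targets other than Nr1d1.

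The Period genes encode the repressors that accumulate with the cryptochromes. Per3 was at 3.64, 27.6 and 37.1 CPM in A17fl/fl + NS and at 27.7, 21.2 and 40.8 CPM in A17fl/fl + DOX. It was at 8.52, 21.8 and 8.60 CPM in A17α-MHCKO + NS and at 30.2, 39.0 and 31.8 CPM in A17α-MHCKO + DOX. The 3 libraries that were highest for Arntl and Clock were the 3 lowest for Per3, and both A17α-MHCKO groups were separate. Per2, the Period protein most tied to setting the clock by outside signals, was at 15.6, 31.6 and 43.5 CPM in A17fl/fl + NS and at 35.3, 16.4 and 32.9 CPM in A17fl/fl + DOX. It was at 13.5, 21.5 and 14.2 CPM in A17α-MHCKO + NS and at 30.7, 37.4 and 35.2 CPM in A17α-MHCKO + DOX. The A17α-MHCKO groups were again separate, with the doxorubicin libraries higher, but A17fl/fl + DOX replicate 2 was low for Per2 although its Arntl was not among the 4 highest. Per1, which hormones and stress signals also induce directly, was the flattest member, with group means of 76.8 ± 24.3, 55.3 ± 15.4, 61.3 ± 11.98 and 75.6 ± 8.30 CPM (SD, n = 3) in the group order used for Arntl. Its highest library was A17fl/fl + NS replicate 2 at 104.4 CPM and its lowest A17fl/fl + DOX replicate 2 at 37.8 CPM. After doxorubicin its levels in A17α-MHCKO mice, 68.6 to 84.8 CPM, lay just above those in A17fl/fl mice, 37.8 to 66.8 CPM.

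Nr1d1 and Nr1d2 encode the REV-ERB repressors of Arntl. Nr1d1 was at 16.5, 150.5 and 69.7 CPM in A17fl/fl + NS and at 105.9, 170.9 and 158.0 CPM in A17fl/fl + DOX. It was at 54.6, 134.3 and 80.0 CPM in A17α-MHCKO + NS and at 72.8, 144.5 and 140.8 CPM in A17α-MHCKO + DOX. Groups overlapped in every comparison, and A17fl/fl + NS replicate 1 was lowest by a wide margin. Nr1d2 showed the same low library, 22.9 CPM, with the other libraries of that group at 131.8 and 119.3 CPM. It lay between 97.6 and 123.3 CPM in A17fl/fl + DOX, between 65.6 and 103.9 CPM in A17α-MHCKO + NS and between 101.0 and 127.9 CPM in A17α-MHCKO + DOX. Leaving out A17fl/fl + NS replicate 1 lowered the SD of log2 CPM over libraries from 0.95 to 0.57 for Nr1d1 and from 0.71 to 0.35 for Nr1d2.

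Dbp and Tef encode transcription factors of the PAR bZIP family, which carry the rhythm to output genes such as those of metabolism. Dbp was at 6.75, 103.5 and 62.2 CPM in A17fl/fl + NS and at 97.8, 109.6 and 176.9 CPM in A17fl/fl + DOX. It was at 12.8, 106.8 and 13.2 CPM in A17α-MHCKO + NS and at 133.2, 197.5 and 179.4 CPM in A17α-MHCKO + DOX. Within each saline group Dbp therefore differed more than 8-fold between mice, whereas the 6 doxorubicin libraries all lay between 97.8 and 197.5 CPM. Tef was at 46.6, 191.1 and 199.3 CPM in A17fl/fl + NS, between 124.6 and 226.1 CPM in A17fl/fl + DOX, between 87.4 and 140.8 CPM in A17α-MHCKO + NS and between 193.5 and 218.0 CPM in A17α-MHCKO + DOX. The same 3 saline libraries were the lowest for both genes, and for both the A17α-MHCKO groups did not overlap.

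Ciart behaved differently within the saline groups. It was at 2.48, 7.72 and 3.32 CPM in A17fl/fl + NS, at 6.23, 5.66 and 7.58 CPM in A17fl/fl + DOX, at 1.3, 1.81 and 1.1 CPM in A17α-MHCKO + NS and at 7.43, 6.37 and 6.13 CPM in A17α-MHCKO + DOX. All 3 A17α-MHCKO + NS libraries were below the other 9, including replicate 2, whose Dbp, Per3 and Tef were within the range of the other groups. Ciart was counted on 19 to 129 fragments per library, the fewest of the 10 members, so counting error adds to these values.

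The position of each mouse between the activators and their targets was summarised as a clock score, the mean log2 CPM of the 8 targets minus that of Arntl and Clock. The score was -1.16, 2.45 and 1.64 in A17fl/fl + NS and 1.71, 1.53 and 3.00 in A17fl/fl + DOX. It was -0.82, 1.23 and -0.98 in A17α-MHCKO + NS and 2.58, 2.82 and 2.21 in A17α-MHCKO + DOX. The 3 scores below 0 were all from saline mice, 1 A17fl/fl and 2 A17α-MHCKO, while the 6 doxorubicin mice lay between 1.53 and 3.00. The other 3 saline mice, at 1.23 to 2.45, overlapped the doxorubicin range. The means were 0.98 ± 1.89 (SD, n = 3) in A17fl/fl + NS, 2.08 ± 0.80 in A17fl/fl + DOX, -0.19 ± 1.23 in A17α-MHCKO + NS and 2.54 ± 0.31 in A17α-MHCKO + DOX. Doxorubicin mice were higher than saline mice by 1.10 in A17fl/fl and by 2.73 in A17α-MHCKO. The first of these differences was 0.04 without A17fl/fl + NS replicate 1, and the second lay between 2.33 and 3.43 when any 1 library was left out. The score had a Pearson r of -0.06 with log2 total count and of 0.14 with the share of mitochondrial counts over the 12 libraries.

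**Figure D2:**
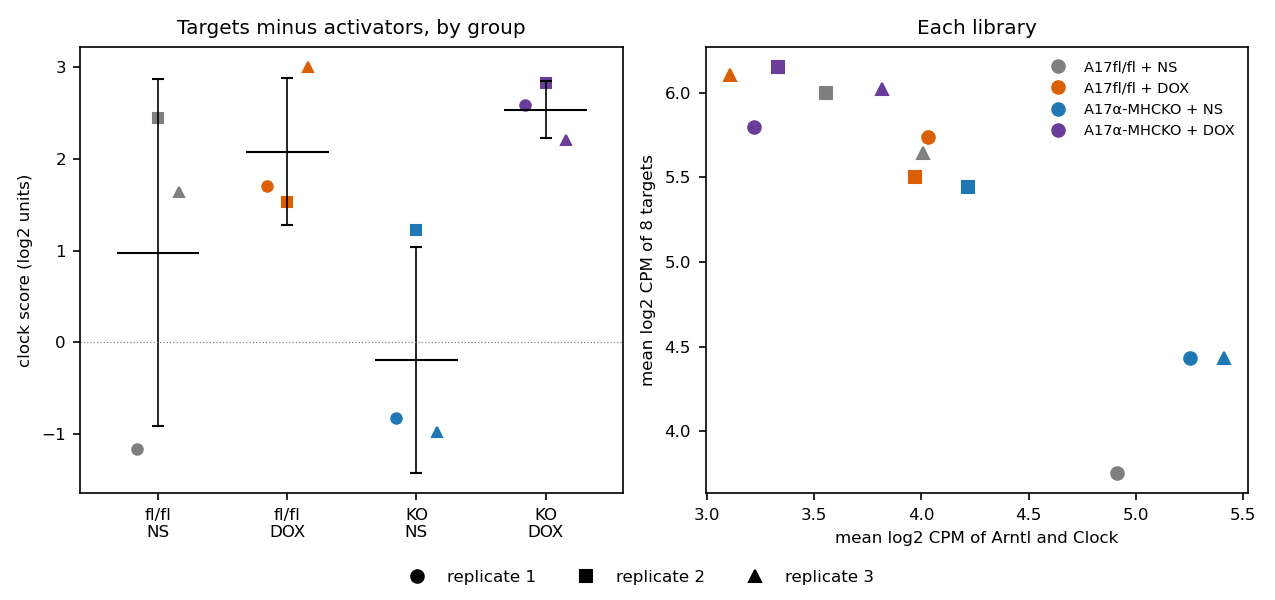
Left, clock score in log2 units (y axis, 8 targets minus Arntl and Clock) by group (x axis; fl/fl is A17fl/fl, KO is A17α-MHCKO) with mean and SD (n = 3). Right, mean log2 CPM of the targets (y axis) against that of the activators (x axis), 1 point per mouse: the 3 mice with scores of -1.16, -0.98 and -0.82 lie apart at lower right, and all 6 doxorubicin mice lie with the other 3 saline mice at upper left.

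Differences between groups were fitted with edgeR on the counts, as log2 fold changes with standard errors (SE). A gene was called by the limits the study used, a log2 fold change beyond 1 in either direction, an unadjusted p below 0.05 and an average of more than 1 FPKM in a compared group. In A17α-MHCKO mice, doxorubicin against saline, both activators were lower and all 8 targets higher. Arntl differed by -2.26 (SE 0.60) and Clock by -0.89 (SE 0.28). Ciart differed by 2.23 (SE 0.39), Dbp by 1.94 (SE 0.91), Per3 by 1.37 (SE 0.63), Per2 by 1.07 (SE 0.36) and Tef by 0.94 (SE 0.44), while Nr1d2, Nr1d1 and Per1 were at 0.55, 0.41 and 0.30. Of the members, 3 of 10 were within the limits (Arntl, Per2 and Ciart), with 0.658% of all tested genes, and 6 of 10 had groups that did not overlap (Arntl, Per2, Per3, Dbp, Tef and Ciart), with 16.9% of all tested genes. Since these libraries chose the members, nothing is read from these counts. The median over the members was 0.75, with 0.00 over all tested genes. The Arntl and Ciart calls were kept with any 1 of the 6 libraries left out, whereas Per2, at 0.95 without A17α-MHCKO + NS replicate 1 and 0.96 without replicate 3 of that group, then missed the log2 limit. Without A17α-MHCKO + NS replicate 2, Dbp was at 3.70, Nr1d1 at 0.82 and 7 of 10 members were within the limits. With 1 library left out, between 71 and 124 of all tested genes were called for this comparison, against 106 with all libraries. Without A17α-MHCKO + NS replicate 1 Nr1d1 was at 0.16, and without replicate 3 Per1 was at 0.14.

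In A17fl/fl mice the same comparison was smaller and mixed. Arntl was lower by 0.98 in log2 terms and Dbp, Nr1d1 and Ciart were higher by 1.16, 0.88 and 0.53, each with an SE of at least 0.36, while Clock was at -0.04, Per2 at -0.10 and Per1 at -0.47. Of the members 0 of 10 were called, beside 2.82% of all tested genes, and 0 of 10 were free of overlap, beside 13.3%. Without A17fl/fl + NS replicate 1 Arntl was at -0.20, Dbp at 0.63, Nr1d1 at 0.40 and Ciart at 0.23, and Per3, Tef and Nr1d2 changed sign to -0.12, -0.24 and -0.22. Without A17fl/fl + NS replicate 2 instead, Arntl was at -1.35, Dbp at 1.90, Nr1d1 at 1.75 and Ciart at 1.16, and 3 of 10 (Arntl, Nr1d1 and Ciart) were within the limits. In that fit 987 of all tested genes were called, against 454 with all libraries. The mean of the doxorubicin differences over both genotypes, a comparison added after the values were seen, was -1.62 (SE 0.41) for Arntl, 1.55 (SE 0.64) for Dbp and 1.38 (SE 0.27) for Ciart. These 3 members were called there, beside 0.814% of all tested genes, and 0 were free of overlap, beside 1.16%. The Dbp call there was lost with 6 of the 12 libraries left out singly, and those of Arntl and Ciart with 0 of 12.

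Between the genotypes, saline and doxorubicin mice gave different pictures. After saline, A17α-MHCKO mice had more Arntl, by 0.90 (SE 0.57), and more Clock, by 0.60 (SE 0.28), than A17fl/fl mice, and less Ciart, Per2 and Per3, by -1.67 (SE 0.39), -0.88 (SE 0.36) and -0.80 (SE 0.63). Ciart alone of the 10 was called, beside 2.99% of all tested genes, and alone was free of overlap, beside 10.9%. Without A17fl/fl + NS replicate 1 the Arntl difference was 1.68, without A17fl/fl + NS replicate 2 that of Ciart was -1.03, no longer called, and that of Nr1d1 1.06, and without A17α-MHCKO + NS replicate 2 that of Dbp was -2.13 in place of -0.37. Per3 was at -0.26 and Per2 at -0.52 without A17fl/fl + NS replicate 3, and Per3 at -1.40 without A17α-MHCKO + NS replicate 2. The number of members called lay between 0 without A17fl/fl + NS replicate 2 and 4 without A17fl/fl + NS replicate 1. Of all tested genes, 1066 and 254 were called in these fits. After doxorubicin, the members' differences lay between -0.38 for Arntl and 0.45 for Per1, and with 1 library left out between -0.76 for Arntl and 0.71 for Dbp. There 0 of 10 were called, beside 0.205% of all tested genes, and Per1 alone was free of overlap, beside 14.1%. The difference of the doxorubicin effects between genotypes, which shares the same libraries, was 1.70 (SE 0.53) for Ciart, 1.17 (SE 0.51) for Per2, -1.28 (SE 0.82) for Arntl and -0.85 (SE 0.40) for Clock. Ciart and Per2 were called, beside 2.13% of all tested genes. The Per2 call was lost with 8 of the 12 libraries left out singly, with a value of 0.81 without A17fl/fl + NS replicate 3, and that of Ciart with 0 of 12. The number called was 6 without A17fl/fl + NS replicate 1, with Arntl at -2.05 and Per3 at 1.48. Over all tested genes the number called lay between 226 and 963 with 1 library left out, against 343 with all 12.

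**Figure D3:**
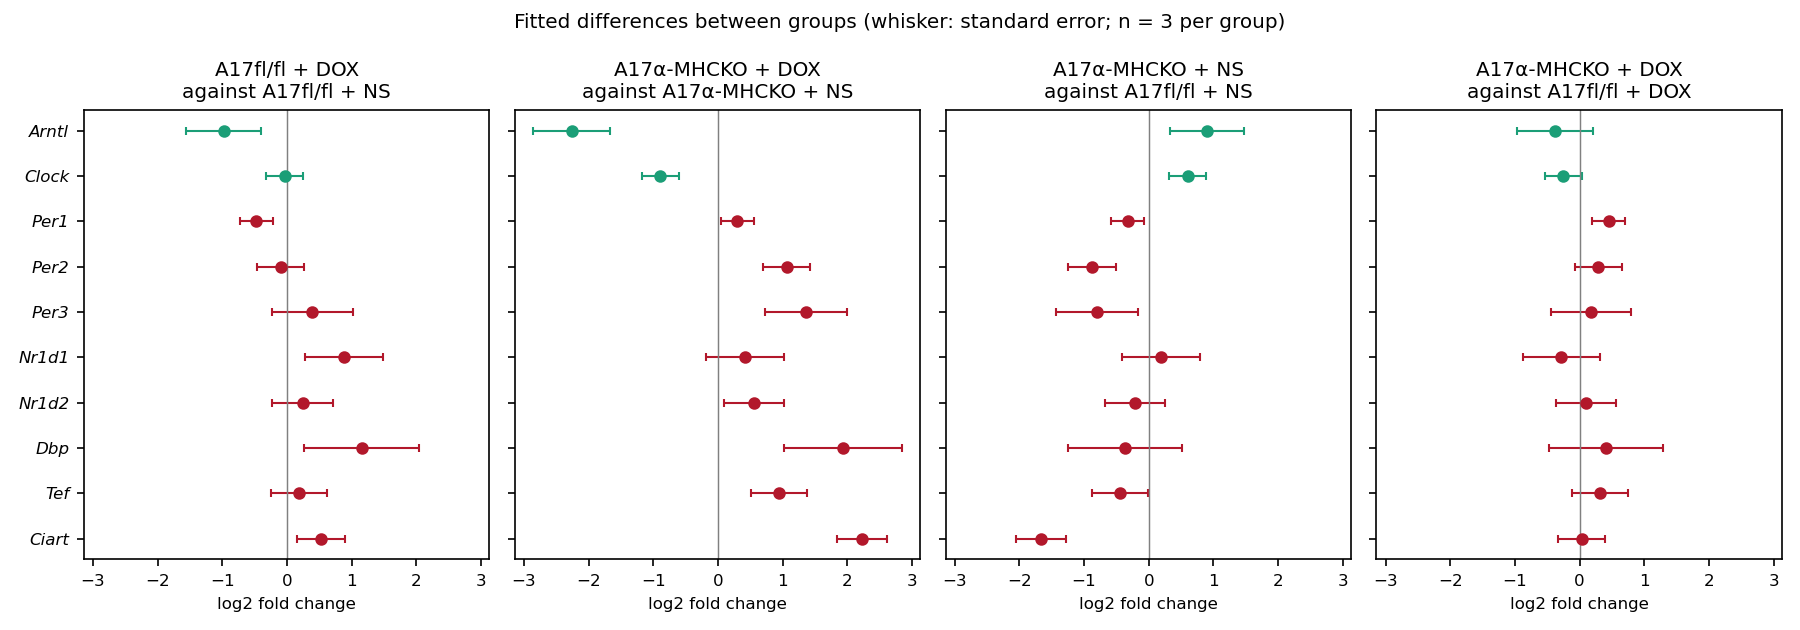
Fitted log2 fold changes (x axis) with standard errors (whiskers) of the 10 clock genes (y axis; green, activators; red, targets) in the 4 comparisons between groups of 3 mice. In A17α-MHCKO mice after doxorubicin Arntl is at -2.26 and Ciart at 2.23, with all targets to the right of 0, and between the genotypes after doxorubicin all points lie between -0.38 and 0.45.

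The members varied together from mouse to mouse. Over the 12 libraries Arntl and Clock had a Pearson r of 0.79 in log2 CPM, all 16 pairs of an activator and a target had a negative r, from -0.91 (Arntl with Ciart) to -0.28 (Clock with Per1), and all 28 pairs of targets had a positive r, from 0.11 (Per1 with Nr1d1) to 0.98 (Per3 with Tef). The signs were the same in all 45 pairs when the group means were subtracted: activators with targets then lay between -0.85 and -0.17, targets with one another between 0.43 and 0.98, and Arntl with Clock at 0.63. Without A17fl/fl + NS replicate 1 the pairs of targets lay between 0.01 and 0.96 and the pairs of activator and target between -0.92 and -0.26. The libraries share their scaling and the 3 low-scoring mice weigh in every pair, so these values describe the 12 mice and carry no test. Per1 was the member least tied to the others, and its r with Nr1d1 went from 0.11 over all libraries to 0.43 within groups.

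**Figure D4:**
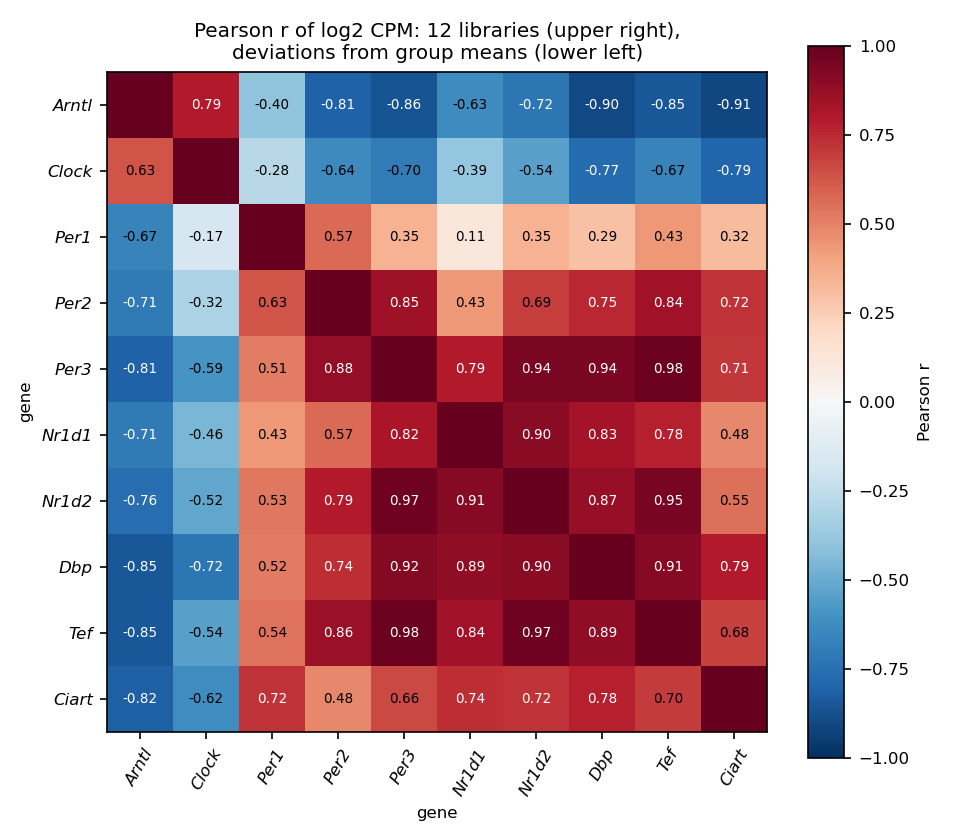
Pearson r of log2 CPM between each pair of clock genes (both axes), over 12 libraries above the diagonal and over deviations from the 4 group means below it, with blue for negative and red for positive values. The first 2 rows and columns, Arntl and Clock, are blue against all 8 targets, and the block of targets is red, palest in the row of Per1.

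The 26 other clock genes on a list of activators, repressors, kinases, ligases and cofactors were not named by the rule and were tested in the same fit. All 26 were tested. Their list was drawn up with earlier results of these data known, so the counts below are no independent test. By the limits of the study, 1 of 26 was called for doxorubicin in A17fl/fl, 2 of 26 in A17α-MHCKO, 2 of 26 between the genotypes after saline, 0 of 26 after doxorubicin, 2 of 26 for the difference of the effects and 1 of 26 over both genotypes, beside the shares of all genes given above. At an unadjusted p under 0.05 the counts were 2, 5, 5, 0, 3 and 5 of 26, beside 10.7%, 6.42%, 10.1%, 2.7%, 5.99% and 10.7% of all tested genes. After Benjamini-Hochberg adjustment over all 16101 genes, edgeR called 0 of the 26 in all 6 comparisons. Of all genes it then called 0%, 0%, 0.0186%, 0.00621%, 0% and 0% in the same order. DESeq2 called 0, 2, 2, 0, 0 and 1 of the 26 at an adjusted p under 0.05, beside 0.947%, 0.291%, 1.09%, 0.0188%, 0.132% and 1.15% of all genes to which it gave an adjusted p. It gave none to 2 of the 26 for doxorubicin in A17α-MHCKO and to 1 of the 26 over both genotypes. The median log2 difference of the 26 lay between -0.18 and 0.17 in the 6 comparisons, where that of all genes lay between -0.04 and 0.06.

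Npas2, a paralog of Clock that also pairs with BMAL1, was at 2.48, 2.33 and 2.94 CPM in A17fl/fl + NS, at 3.46, 5.05 and 1.43 CPM in A17fl/fl + DOX, at 10.4, 4.84 and 10.8 CPM in A17α-MHCKO + NS and at 2.77, 2.27 and 2.73 CPM in A17α-MHCKO + DOX. All A17α-MHCKO + NS libraries were above those of A17fl/fl + NS and of A17α-MHCKO + DOX. Npas2 was lower after doxorubicin in A17α-MHCKO mice by -1.73 (SE 0.42, edgeR adjusted p = 0.655) and higher in A17α-MHCKO than in A17fl/fl mice after saline by 1.74 (SE 0.42, edgeR adjusted p = 0.260). DESeq2 gave adjusted p-values of 0.0290 and 0.0117 for these, and over all alternatives the adjusted p lay between 0.0290 and 1.0 and between 0.0117 and 0.910. The difference of the effects was -2.09 (SE 0.59, edgeR adjusted p = 0.828). In A17fl/fl + NS replicate 1, where Arntl and Clock were high, Npas2 was not.

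Bhlhe41 (Dec2) and Bhlhe40 (Dec1) encode repressors that compete for E-boxes. Bhlhe41 was at 11.5, 21.8 and 13.7 CPM in A17α-MHCKO + NS and at 26.3, 41.9 and 41.7 CPM in A17α-MHCKO + DOX, groups that did not overlap, with a difference of 1.22 (SE 0.27, edgeR adjusted p = 0.646 and between 0.0232 and 1.0 over all alternatives, the lowest with DESeq2). Over both genotypes it was higher after doxorubicin by 0.83 (SE 0.19, edgeR adjusted p = 0.240). Bhlhe40 was at 166.4, 72.5 and 83.2 CPM in A17fl/fl + NS and at 26.6, 58.7 and 49.6 CPM in A17α-MHCKO + NS, lower by -1.25 (SE 0.35, edgeR adjusted p = 0.316). Without A17fl/fl + NS replicate 1 that difference was -0.79 and without A17α-MHCKO + NS replicate 1 it was -0.99, both inside the limit. The difference of the effects for Bhlhe40, 1.16 (edgeR adjusted p = 0.828), was within the limits with all 12 libraries and missed them with 7 of the 12 left out singly.

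The cryptochromes, partners of the PER proteins, were not called in any comparison. Cry2 was between 25.5 and 31.2 CPM in A17α-MHCKO + NS and between 47.3 and 51.2 CPM in A17α-MHCKO + DOX, a difference of 0.79 (SE 0.25, edgeR adjusted p = 0.705) with no overlap. Cry1 was lower after doxorubicin in A17fl/fl mice by -0.69 (SE 0.25, edgeR adjusted p = 0.414). Nfil3, a D-box repressor that opposes DBP and TEF, was at 68.5, 9.93 and 12.5 CPM in A17fl/fl + NS and between 8.24 and 11.02 CPM in A17fl/fl + DOX. Its difference there, -1.68 (SE 0.62, edgeR adjusted p = 0.416), rested on replicate 1 of the saline group and was -0.25 without it. Over both genotypes it was -1.32 (SE 0.44, edgeR adjusted p = 0.363) and -0.60 without that library. Between the genotypes after doxorubicin the smallest p-values of the list were those of Rorb (0.91), Gsk3b (-0.23) and Fbxw11 (-0.17), each with an edgeR adjusted p of 0.9998. Fbxl21, a ligase for the cryptochromes with under 1.4 CPM in every library, had a difference of effects of 1.96 (SE 0.80, edgeR adjusted p = 0.828) but missed the FPKM limit.

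**Figure D5:**
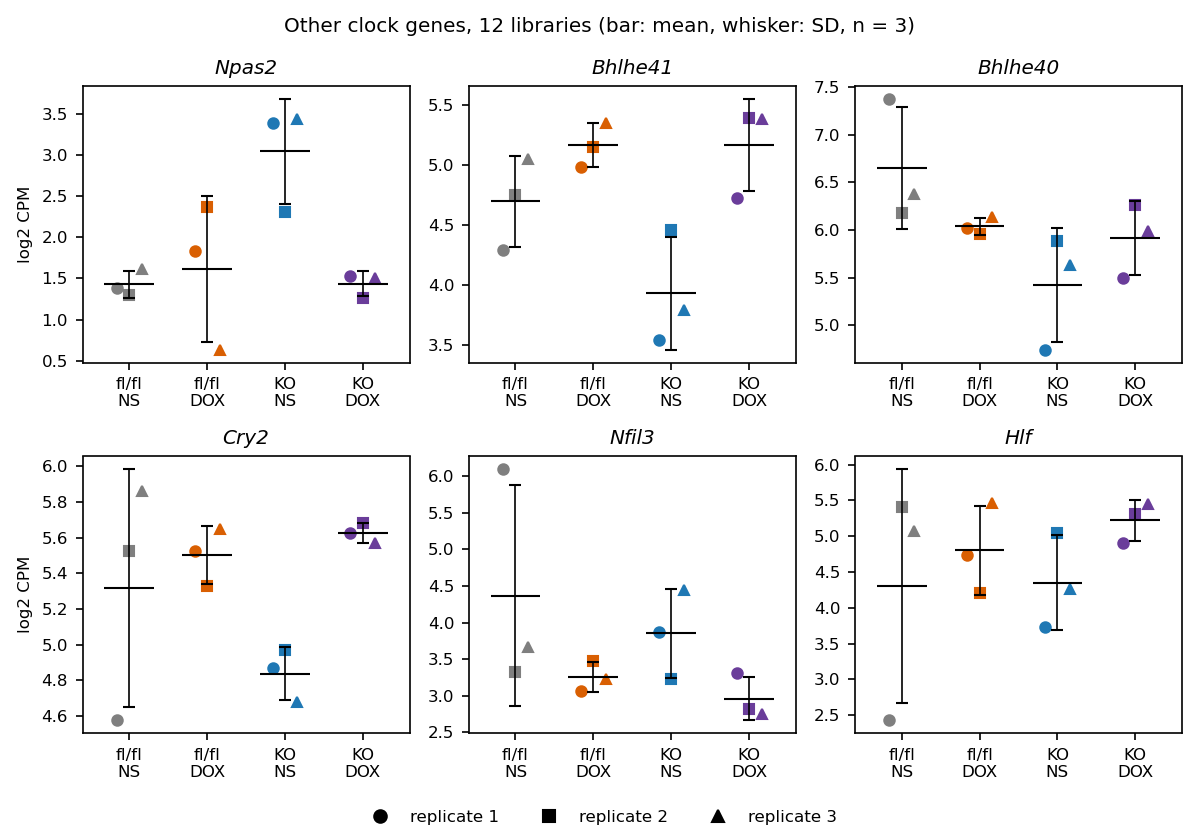
Level of 6 clock genes outside the 10 members (y axis, log2 CPM, a separate scale in each panel) in the 4 groups (x axis; fl/fl is A17fl/fl, KO is A17α-MHCKO), 1 point per mouse, with mean and SD (n = 3). Npas2 is highest in replicates 1 and 3 of A17α-MHCKO + NS, the Bhlhe41 and Cry2 points of that group lie below those of A17α-MHCKO + DOX, and A17fl/fl + NS replicate 1 lies far from its group for Nfil3, Bhlhe40 and Hlf.

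Genes outside the members were also ranked by their likeness to the clock score, the smaller in size of the Pearson r over 12 libraries and over the 11 without A17fl/fl + NS replicate 1. Of 14450 genes above 1 CPM, 57 had a likeness over 0.8 and 22 under -0.8. The closest on the positive side were Fbxw5 (0.93), an F-box protein, Tcap (0.91), which caps titin at the Z-disc, Hspd1-ps3 (0.90), Entpd5 (0.90) and Stk35 (0.89), a kinase. Hspd1-ps3 is a pseudogene whose reads cannot be told apart from those of its near-identical parent, so its value is uncertain. Tcap was at 526.6, 1713 and 1245 CPM in A17fl/fl + NS, between 1681 and 1904 CPM in A17fl/fl + DOX, between 790.7 and 1212 CPM in A17α-MHCKO + NS and between 2013 and 2431 CPM in A17α-MHCKO + DOX. On the negative side were Ddx10 (-0.90), an RNA helicase, Nxn (-0.89), Pecam1 (-0.89), an endothelial adhesion molecule, Zbtb34 (-0.88) and Fam124b (-0.87). Of the other clock genes, Cry2 (0.87), Bhlhe41 (0.86) and Hlf (0.83), a PAR bZIP factor like Dbp, were among the 32 highest. Sfpq (-0.87) and Nfil3 (-0.81) were among the 20 lowest, and Nono, which with Sfpq binds the PER complex, stood at -0.76. Npas2 was at -0.97 over 11 libraries and at -0.71 over all 12. As the score is built from the same libraries, these values are descriptions, and with so many genes ranked the highest are high by selection.

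Gene groups that move with the heart's makeup or with outside signals moved unevenly beside the score. The summed level of 8 cardiomyocyte markers was 17380 to 37200 CPM in A17fl/fl + NS, 40130 to 43890 CPM in A17fl/fl + DOX, 26650 to 33890 CPM in A17α-MHCKO + NS and 38280 to 42230 CPM in A17α-MHCKO + DOX. It had an r of 0.80 with the clock score over 12 libraries and 0.76 over 11, and its part in the members' differences was not tested. The 8 markers did not move together. For doxorubicin in A17α-MHCKO mice, Actc1, Myl2, Myl3, Tnnt2, Pln and Actn2 were at 0.99, 0.95, 0.63, 0.48, 0.37 and 0.33. Myh6 was at 0.004 and Ryr2 at -0.54, so the sum is not a measure of cardiomyocyte content. In this bulk tissue, fewer cells of a type and less RNA per cell cannot be told apart. The sum of 5 fibroblast markers, which did not move together, had an r of -0.65, and -0.52 over 11. That of 6 atrial markers had an r of -0.12, that of 5 endothelial markers of -0.29 and that of 6 macrophage markers of -0.41. Over 11 libraries these were -0.36, -0.35 and 0.15, so the macrophage value changed sign. The neutrophil sum had an r of -0.50 over 12 libraries and -0.04 over 11. Red cell, adipocyte, mesothelial and skeletal muscle marker sums had r values of -0.33, 0.24, -0.05 and 0.08. Over 11 libraries these were 0.13, -0.04, -0.21 and -0.68. The skeletal muscle sum was near the floor, between 0.404 and 2.383 CPM in every library.

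Lists of genes that could move with the clock or with its outside cues were counted by the same limits for doxorubicin in the 2 genotypes. These lists too were drawn up with earlier results of these data known. Of all tested genes, 2.82% were called in A17fl/fl mice, 0.658% in A17α-MHCKO mice and 2.13% for the difference of the effects. Those called in A17fl/fl mice were 358 lower and 96 higher, and those for the difference of the effects 106 lower and 237 higher. Of 16 output genes of the heart clock, such as those for potassium channels and fuel use, 1 was called in A17fl/fl mice, Pdk4, a kinase that limits glucose oxidation (-2.57, SE 0.94, edgeR adjusted p = 0.414), and 0 in A17α-MHCKO mice. That call was lost without A17fl/fl + NS replicate 3 or A17fl/fl + DOX replicate 2, and 2 output genes were called without A17fl/fl + NS replicate 1. Of 10 glucocorticoid response genes, 5 were called lower in A17fl/fl mice (Fkbp5, Errfi1, Pdk4, Mt1 and Mt2) and 0 of 10 in A17α-MHCKO mice. The first of these counts was 2 without A17fl/fl + NS replicate 1 and 3 without A17fl/fl + DOX replicate 2, and the second was 2 without A17α-MHCKO + NS replicate 2. Of 20 immediate-early genes, which respond to stress within minutes, 6 were called lower in A17fl/fl mice (Junb, Nr4a3, Atf3, Ier3, Arc and Myc), and 0 of 20 in A17α-MHCKO mice. The first count was 2, with 1 other gene called higher, without A17fl/fl + NS replicate 1 and 3 without replicate 1 or replicate 2 of A17fl/fl + DOX. Of 8 genes that respond to body temperature, 2 were called lower in A17fl/fl mice (Hspa1a and Hspa1b), also with any 1 library of that comparison left out, and 0 of 8 in A17α-MHCKO mice. At an adjusted p under 0.05 edgeR called 0 genes of any of these lists. The difference of the doxorubicin effects was called for 0 of 16, 2 of 10, 4 of 20 and 2 of 8 genes of these lists, each higher, and for 0 to 2, 2 to 4, 1 to 7 and 1 to 3 genes with 1 library left out, where the immediate-early count was 1 without A17fl/fl + NS replicate 1. Their summed levels had r values with the clock score of 0.10, -0.40, -0.56 and -0.42 over 12 libraries, and of -0.06, -0.24, -0.24 and -0.24 over 11, and their part in the clock genes' differences was not tested.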

How the data were processed

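RNA of 12 left ventricles was sequenced by the authors from stranded paired-end mRNA libraries. The submitters' processing notes name CASAVA 1.8, HISAT2, SAMtools 1.3.1, edgeR and the build GRCm39, and the study counted fragments with StringTie. Deposited counts are whole fragments of each gene, not normalized. FPKM, also made by the authors, equal count over length and library total with no TMM scaling, to within 1% for 100% of 11069 genes checked. All columns were mapped (0 unused).

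Counts were fitted in R 4.3.3 with edgeR 4.0.16: filterByExpr (16101 genes), TMM, glmQLFit with 1 mean for each of 4 groups, glmQLFTest for 5 contrasts and, added later, doxorubicin over both genotypes, with Benjamini-Hochberg adjustment over all tested genes. Standard errors were approximated from the size of the log2 fold change and F. Log2 CPM used a prior count of 2. The steps were tested on simulated data of 15887 genes with changes set for doxorubicin in A17fl/fl. At an adjusted p under 0.05, edgeR recovered 97% of log2 changes of 2 and 19% of log2 changes of 1, with 6 false calls. The simulation gave all genes the same dispersion, held no outlying library and set changes only in well-counted genes. These shares therefore check the steps and do not give the power for the measured genes. DESeq2 1.42.0, RLE scaling, 2 other filters, the compared groups alone, a replicate block, adjusted p-values and each library left out were alternatives. Replicates differed in counts by 12.0 to 186 per degree of freedom, so none is a repeat. P-values and SEs rest on the spread between mice within groups, with 3 mice per group. That spread was estimated from all 4 groups together. It therefore includes A17fl/fl + NS replicate 1 in every comparison, except where that library was left out or only other groups were fitted.

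The members and all lists were chosen with earlier results of these data known. Other clock genes are named where called or among the 3 smallest p of a comparison, genes of other lists where called, and likeness genes as the 5 highest and 5 lowest. Hlf, Sfpq and Nono were picked after their values were seen.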

Additional observations from a re-analysis of the deposited data

How the results depend on the processing

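Under every alternative run the clock score differences moved by less than 1 SD of the compared groups. With 3 mice per group a left-out library also sets that SD, so leaving 1 out could hardly exceed this limit. The difference for doxorubicin in A17fl/fl went from 1.10 to 0.04 within it. All differences kept their direction under RLE scaling, a prior count of 0.5, Arntl as the only activator and the score without Per1. These differences also kept it with each library left out. With 1 library left out they lay between 0.04 and 1.84 for doxorubicin in A17fl/fl, 2.33 and 3.43 in A17α-MHCKO, -2.23 and -0.43 between genotypes after saline, 0.18 and 0.92 after doxorubicin, 0.89 and 2.69 for the difference of the effects and 1.38 and 2.28 over both genotypes. Of 820 alternative values of the members' differences, 808 moved by less than 1 replicate SD, and the 12 that moved more each left out 1 saline library. Leaving 1 of 3 mice out could rarely exceed this limit, and a change of sign could stay within it. For doxorubicin in A17fl/fl it did so for Per3, Tef and Nr1d2, at -0.12, -0.24 and -0.22 without A17fl/fl + NS replicate 1. Per3 and Dbp were also within the limits for doxorubicin in A17α-MHCKO with DESeq2, without a filter and in a fit of only the groups compared. Counts of genes depended most on the rule and on A17fl/fl + NS. In the same order of comparisons, 454, 106, 482, 33, 343 and 131 of all genes were called, and with adjusted p-values 0, 0, 3, 1, 0 and 0. With 1 library left out the counts lay between 204 and 987, 71 and 124, 254 and 1066, 28 and 64, 226 and 963, and 97 and 360. The lowest counts for doxorubicin in A17fl/fl, for the genotypes after saline and over both genotypes came without A17fl/fl + NS replicate 1, and the highest of these 3 and of the difference of the effects without replicate 2 of that group. A fit of only the groups compared called 235 genes for doxorubicin in A17fl/fl, 164 in A17α-MHCKO and 266 between the genotypes after saline. Of the other clock genes, 1, 2, 2, 0, 2 and 1 were called, 0 in each with adjusted p-values, and 0 for doxorubicin in A17fl/fl with only the groups compared. With 1 library left out these counts lay between 0 and 1, 2 and 2, 1 and 3, 0 and 0, 1 and 3, and 0 and 1. The cause of these shifts was not tested.

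The deviations of 18 same-numbered pairs of libraries correlated between -0.10 and 0.22, with 3 over 0.1. Those of 36 differently numbered pairs lay between -0.26 and 0.32, with 4 over 0.1. Such values cannot decide whether replicate numbers pair the mice, since each deviation is taken from a mean of 3 mice. With a replicate block, 281 genes were called for doxorubicin in A17fl/fl and 81 over both genotypes, and the other clock genes called were 0 in A17fl/fl and 1 for the difference of the effects. Nr1d1 and Dbp were then within the limits in A17fl/fl, Per3 and Dbp in A17α-MHCKO and Per3 over both genotypes, and Per2 was not for the difference of the effects. At 3 mice per group and these depths, differences of the size of the members' SE could not be told from the spread between mice.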
